A study of Mus musculus with 33 samples.

Results

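The opioid peptides and receptors of the mouse hypothalamus were examined after ovariectomy (OVX), which removes the ovarian source of estrogen. The set holds 7 genes, chosen by symbol from the 41565 named entries of the deposited expression table. It comprises 3 precursor genes (*Pdyn*, *Penk* and *Pnoc*) and 4 receptor genes (*Oprk1*, *Oprm1*, *Oprd1* and *Oprl1*). All 7 were measured in each of the 33 bulk RNA-seq libraries and passed the filter on low values in both regions. None of them differed between groups at the threshold used here, an adjusted *P* under 0.05 over all genes tested. In the POA, the precursor genes varied more between libraries of the same group than the receptor genes did, a contrast that was not tested.

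Tissue came from WT adult female mice, which were 3 to 4 months old when the ovaries were removed. The posterior hypothalamus (PH, the block that holds the arcuate nucleus) and the preoptic area (POA) were dissected. The PH groups were intact mice (4 libraries), mice taken 14 days (6) or 4 months (6) after OVX, and the POA groups held 5, 6 and 6 libraries. The labels name 2 batches, and every group has 2 or 3 libraries in both. The intact mice were killed in diestrus, and their sample titles say sham whereas another label and the study's methods say intact. OVX was bilateral, under isoflurane, and came with slow-release buprenorphine and meloxicam. Buprenorphine is itself a ligand of opioid receptors. The methods describe the drugs only for operated mice, so ovary removal, surgery, drug and, at 4 months, a greater age cannot be told apart. The labels do not say whether a PH and a POA library came from the same mouse. The study's methods say that both regions were taken from euthanized females, but do not match the libraries. No source used here states that each library is a separate mouse, so a *P* value measures the spread between libraries, which may be technical.

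Opioid peptides are cut from larger precursor proteins at pairs of basic residues. *Pdyn* encodes prodynorphin, the source of the dynorphins, which act mainly on the κ receptor (*Oprk1*). *Penk* encodes proenkephalin, whose enkephalins act on the δ (*Oprd1*) and μ (*Oprm1*) receptors, and *Pnoc* encodes the precursor of nociceptin, the ligand of the nociceptin receptor (*Oprl1*). All these receptors couple to inhibitory G proteins, which lower cAMP, open potassium channels and close calcium channels. In the arcuate nucleus, KNDy neurons make kisspeptin, neurokinin B and dynorphin together, and dynorphin acting on the κ receptor restrains the pulses of kisspeptin release that drive gonadotropin-releasing hormone. The POA holds many neurons that make enkephalin or nociceptin, and it controls body temperature.

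The coding sequences show what sets the precursors apart. They are given because each capital stretch is an opioid core, the 5 codons at the start of an active peptide, which is repeated within *Pdyn* and *Penk*. Lower-case letters are the 6 bases on either side, which code for the neighboring residues, whether or not these form a cleavage site. All were read from the transcript sequences of GENCODE M39, with positions on GRCm39. They run 5′ to 3′ on the coding strand, which is the minus strand for the 3 precursor genes. *Pdyn* (chr2:129528469-129541945) has 3 cores in exon 4, all ending in leucine:
Pdyn core 1: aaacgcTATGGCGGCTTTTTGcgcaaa
Pdyn core 2: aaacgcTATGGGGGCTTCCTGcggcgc
Pdyn core 3: aagcgcTATGGTGGTTTCCTGcggcgt
*Penk* (chr4:4132722-4141856) has 7 cores in exon 2, of which 6 end in methionine and 1, core 6, ends in leucine. Cores 1, 4, 6 and 7 are shown, for the first copy, the leucine copy and the copies with no basic pair after them:
Penk core 1: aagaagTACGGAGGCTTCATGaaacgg
Penk core 4: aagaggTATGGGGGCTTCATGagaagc
Penk core 6: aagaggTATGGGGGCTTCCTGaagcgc
Penk core 7: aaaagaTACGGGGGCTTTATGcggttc
*Pnoc* (chr14:65638122-65663196) has 1 such core in exon 3, in which phenylalanine replaces the first tyrosine and threonine stands at the fifth place:
Pnoc core 1: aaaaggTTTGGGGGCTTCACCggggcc
A pair of basic residues stands before all 11 cores, and after all but *Penk* cores 4 and 7 and the *Pnoc* core. RNA-seq of the precursor gene does not tell which of these peptides was made.

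**Figure D1:**
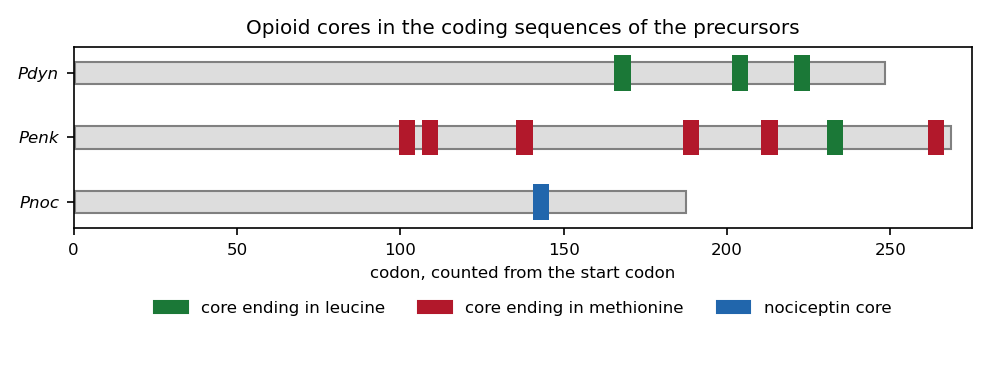
Position of the opioid cores along the coding sequences of the 3 precursor genes, in codons from the start codon. Grey bars are the coding sequences (248 codons in *Pdyn*, 268 in *Penk* and 187 in *Pnoc*), and each colored block is 1 core of 5 codons, 3 in *Pdyn*, 7 in *Penk* and 1 in *Pnoc*.

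The receptor genes lie on chromosome 1 (*Oprk1*, chr1:5658667-5676375, plus strand), chromosome 10 (*Oprm1*, chr10:6708506-6988198, plus strand), chromosome 4 (*Oprd1*, chr4:131838037-131871842, minus strand) and chromosome 2 (*Oprl1*, chr2:181356605-181363728, plus strand). Their coding sequences have 380, 390, 372 and 367 codons. Exons of *Penk* overlap exons of *A830012C17Rik* on the other strand, and those of *Oprm1* overlap *Ipcef1*. The library kit keeps the strand, but the strand setting of the quantification is not given in the sources used here, so reads of these pairs may be shared.

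Values are a normalized signal without unit, on a linear scale. Genes without measurable RNA sit at a floor of 22.1, and the lowest group mean among the 7 genes, 302 for *Oprd1* in the intact PH, was 13.7 times that floor. The table gives no counts, so the depth behind a value is unknown. The values of each library summed to between 44.6 and 73.1, in units of 1000000. A set of 110 genes at the floor moved along 1 common line across the libraries, and 83.5% of that common variation lay between the PH and the POA, so levels are not compared between the regions. The line also varied within regions, and its correlation with the members is given after the precursor genes. All 8 neuronal markers were above 2 times the floor in every library. So were 7 of 8 arcuate markers in the PH and 7 of 7 preoptic markers in the POA, but both lists were also present in the other region. The remaining arcuate marker, *Kiss1*, had group means of 21.99 to 31.4, reached 2 times the floor in 1 library (46.3, library 6 of the 4-month POA group) and was not tested. The paper describes another entry, *Gm28040*, whose coding sequence overlaps that of *Kiss1* and which changed most after OVX. Reads of this pair may be shared, so these low values do not show that *Kiss1* RNA was absent. In the PH, library 5 of the 14-day group stood apart, with a value of 0.785 on the first surrogate variable (SV1, the covariate of the fits), against -0.31 to 0.19 in the other PH libraries. In the POA, SV1 separated the batches, with 0.19 to 0.35 in batch 1 and -0.32 to -0.12 in batch 2. There, SV1 and batch, each used alone, adjust largely for the same split of libraries. A fit with both together moved some values. In the POA at 4 months it left 0 of 7 members above 0, against 2 with SV1 alone. Because these are bulk tissue samples, fewer cells of a type and less RNA per cell cannot be told apart.

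The *Pdyn* differences from intact were above 0 in the PH and below 0 in the POA at both times, and none passed the test. In the PH, the 4 intact libraries had 1186, 1441, 1260.2 and 1329.8 units. The 14-day group ran from 997 to 1693 with a median of 1453, and the 4-month group from 1147 to 2420.1 with a median of 1432. The groups overlapped, and the lowest library of each OVX group lay below all intact ones. Means were 1304 ± 109 (SD, *n* = 4), 1428 ± 252 (*n* = 6) and 1585 ± 447 (*n* = 6). By limma with SV1, the log2 difference from intact was 0.21 ± 0.15 (SE) at 14 days and 0.22 ± 0.15 at 4 months (limma adjusted *P* = 0.9999 and 0.886). Within batches 1 and 2, the 4-month difference was 0.10 and 0.39, and the 14-day difference was 0.24 and -0.02. Without the highest library, number 5 of the 4-month group, the 4-month value was 0.10.

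In the POA, the 5 intact libraries had 1798, 2026, 1149, 1274 and 1645 units of *Pdyn*. The 14-day group ran from 1038 to 1761 with a median of 1089, and the 4-month group from 848 to 2149 with a median of 1095. Most OVX libraries were low, with 4 of 6 at 14 days and 3 of 6 at 4 months below every intact library, while the highest library of all belonged to the 4-month group. Means were 1578 ± 364 (*n* = 5), 1225 ± 282 (*n* = 6) and 1240.0 ± 500.3 (*n* = 6). The log2 difference was -0.37 ± 0.25 at 14 days and -0.41 ± 0.25 at 4 months (limma adjusted *P* = 0.851 and 0.701), the latter with a 95% interval of -0.93 to 0.12. Within batch 1 the differences were -0.72 and -0.74, and within batch 2 they were -0.11 and -0.17.

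The spread of *Pdyn* in the POA went with markers of the striatum, which borders this block and makes much *Pdyn*. The 4 POA libraries with the highest mean of the 8 striatal markers were library 5 of the 4-month group and intact libraries 1, 5 and 2, with means of 10.56, 10.39, 10.37 and 10.34 on the log2 scale. They held 4 of the 5 highest *Pdyn* values. The remaining one, 1761 in library 6 of the 14-day group, came with striatal rank 10 of 17. *Pdyn* did not follow striatal signal throughout the PH. There, intact library 2 had the highest striatal mean (10.72) and 1441 units of *Pdyn*. The highest PH value of *Pdyn*, 2420 in library 5 of the 4-month group, came with striatal rank 5 of 16. The summed striatal markers ran from 8883 to 14378 in the intact group (median 13151), from 8237 to 10536 at 14 days (median 9810.4) and from 8749 to 15111 at 4 months (median 9349), and all 8 were present in every library. With the mean of these markers as a second covariate, added after the values were seen, the *Pdyn* differences in the POA were -0.03 ± 0.18 at 14 days and -0.23 ± 0.16 at 4 months. With thalamic markers in that place they were -0.55 ± 0.22 (limma adjusted *P* = 0.666) and -0.60 ± 0.22 (adjusted *P* = 0.355). Without library 5 of the 4-month group, the 4-month difference was -0.63 ± 0.19 (limma adjusted *P* = 0.298). How much of the *Pdyn* difference belongs to the striatal share of the tissue was not tested.

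*Penk* had the widest range of the 7 genes in the POA. Its 5 intact libraries had 3804, 3039, 3716, 3070.1 and 5432 units. The 14-day group ran from 1311 to 4658 with a median of 3306, and the 4-month group from 2148 to 3969 with a median of 3228. The highest library was an intact one and the lowest was library 6 of the 14-day group, 4.15-fold apart, with the other libraries mixed between them. Means were 3812 ± 972 (*n* = 5), 3150.1 ± 1149.9 (*n* = 6) and 3187 ± 609 (*n* = 6). The log2 difference from intact was -0.34 ± 0.29 at 14 days and -0.24 ± 0.29 at 4 months (limma adjusted *P* = 0.892 and 0.857). Without library 6 of the 14-day group, the 14-day difference was -0.01 ± 0.17.

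In the PH, the 4 intact libraries had 2738, 3919.7, 2611 and 2902 units of *Penk*. The 14-day group ran from 2279 to 3902 with a median of 2965, and the 4-month group from 1628 to 3680.3 with a median of 2968. No OVX library lay above the highest intact one, and the 3 groups overlapped over most of their range. Differences from intact were -0.03 ± 0.21 at 14 days and -0.15 ± 0.21 at 4 months (limma adjusted *P* = 0.9999 and 0.949). The batches went opposite ways, with -0.37 and -0.56 in batch 1 against 0.28 and 0.25 in batch 2. Without library 3 of the 4-month group, the 4-month difference was 0.01 ± 0.16, and with the replicate number of the labels as a block it was -0.33 ± 0.14 (limma adjusted *P* = 0.811).

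The lowest *Penk* value of each region was in the library with the most thalamic marker signal. Library 6 of the 14-day POA group and library 3 of the 4-month PH group had the highest mean of the 6 thalamic markers in their regions, 12.29 and 12.38 on the log2 scale, and the lowest *Penk* values, 1311 and 1628. Both libraries were extreme on other lists too. Ranked from the highest among the POA libraries, library 6 was number 17 of 17 for preoptic and for neuronal markers and number 1 for magnocellular ones, and the PH library was number 16 of 16 for striatal and preoptic markers. Nor did *Penk* follow thalamic signal throughout the PH, where the highest *Penk* values, in intact library 2 and library 5 of the 14-day group, came with thalamic ranks 5 and 3 of 16. The summed thalamic markers ran from 13247 to 41563 in the 14-day POA group and from 9796 to 28654 in the intact POA group. In the PH they ran from 11045 to 43906 at 4 months and from 18468 to 26351 in intact mice, with all 6 present in every library. With the thalamic mean as a covariate, the *Penk* differences in the POA were -0.04 ± 0.16 and 0.08 ± 0.16, and with the striatal mean they were -0.25 ± 0.32 and -0.19 ± 0.30. In the PH the thalamic mean gave -0.13 ± 0.17 and -0.20 ± 0.16, whereas the striatal mean turned the sign, to 0.31 ± 0.15 at 14 days and 0.17 ± 0.15 at 4 months (limma adjusted *P* = 0.998 and 0.853). The part of the tissue block in these values was not tested.

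*Pnoc* separated the batches more than the groups. In the POA the batch means were 530 and 989 units in intact mice, 609 and 828 at 14 days and 600.4 and 1016 at 4 months, each time higher in batch 2. Group means were 805 ± 264 (*n* = 5), 719 ± 223 (*n* = 6) and 808 ± 285 (*n* = 6) in the POA. In the PH they were 661 ± 122 (*n* = 4), 566 ± 166 (*n* = 6) and 680.3 ± 208.1 (*n* = 6). At 14 days and 4 months, the log2 differences from intact were -0.05 ± 0.14 and -0.06 ± 0.14 for the PH, and -0.05 ± 0.22 and 0.11 ± 0.22 for the POA. The 14-day PH value depended on SV1. Without a covariate it was -0.26 ± 0.24, and it was -0.16 within batch 1 and -0.37 within batch 2. With the thalamic markers as a covariate, the 4-month POA value was 0.37 ± 0.11 (limma adjusted *P* = 0.252).

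The common line of the floor genes moved with several members inside a region as well. Centered within batch, its Pearson correlation with log2 values over the 17 POA libraries was 0.82 for *Pdyn*, -0.61 for *Penk* and -0.86 for *Pnoc*, and over the 16 PH libraries it was -0.21, -0.18 and -0.80. For the receptors it lay between -0.60 (*Oprl1* in the PH) and 0.45 (*Oprm1* in the PH). These libraries share tissue blocks and batches, so the values are a description. With this line and batch as covariates in place of SV1, the POA differences from intact at 14 days and 4 months were -0.25 ± 0.14 and -0.23 ± 0.14 for *Pdyn*, -0.44 ± 0.20 and -0.41 ± 0.20 for *Penk*, and -0.19 ± 0.09 and -0.10 ± 0.09 for *Pnoc* (limma adjusted *P* from 0.423 for *Penk* to 0.703 for *Pnoc*, both at 4 months). *Pnoc* in the PH then had -0.20 ± 0.13 and 0.01 ± 0.13. The part of this line in the values of the precursor genes was not tested.

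**Figure D2:**
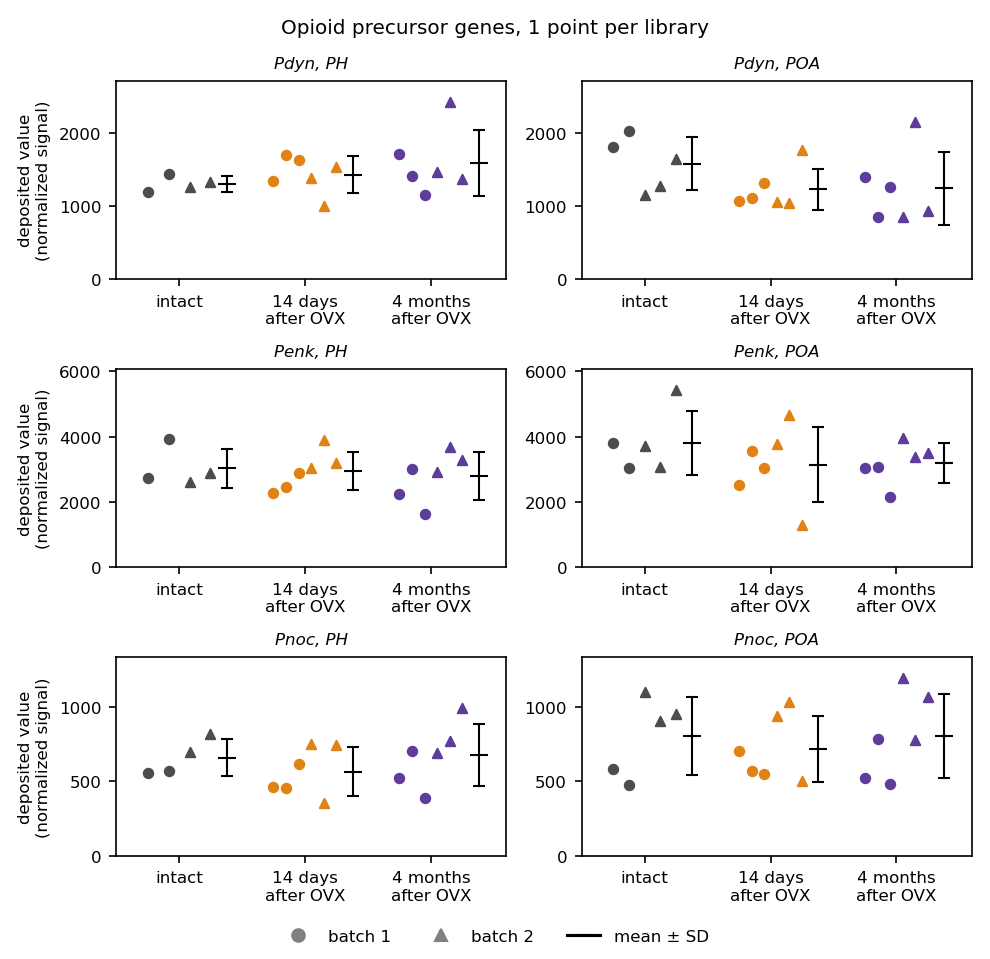
Deposited values (normalized signal, linear scale from 0) of the 3 precursor genes in the PH (left) and POA (right), with 1 point per library, circles for batch 1 and triangles for batch 2. Black bars are the mean ± SD of each group. All groups overlap, and in the POA *Pdyn* has a 4-month library at 2149 above the highest intact one at 2026.

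*Oprk1*, the κ receptor that dynorphin acts on, had its lowest PH values in the 4-month group. The 4 intact PH libraries had 1286, 1276, 1150.4 and 1302 units. The 14-day group ran from 1242 to 1429.8 with a median of 1299, and the 4-month group from 928 to 1463 with a median of 1109. Of the 6 libraries at 4 months, 4 lay below all those at 14 days and 1 lay above them. The log2 difference between 4 months and 14 days was -0.21 ± 0.10 (limma adjusted *P* = 0.9996), with a 95% interval of -0.42 to 0.01, and was -0.24 in batch 1 and -0.20 in batch 2. Against intact mice the PH differences were 0.06 ± 0.11 after 14 days and -0.14 ± 0.11 after 4 months. POA means were 1191 ± 104 (*n* = 5), 1296 ± 216 (*n* = 6) and 1218 ± 77.5 (*n* = 6), with differences from intact of 0.08 ± 0.08 and 0.00 ± 0.08.

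*Oprm1*, the μ receptor, to which β-endorphin, enkephalin and morphine bind, had PH means of 631 ± 127 (*n* = 4), 568 ± 23.0 (*n* = 6) and 572 ± 100.04 (*n* = 6). Its POA means were 576 ± 82.0 (*n* = 5), 586 ± 116 (*n* = 6) and 588 ± 70.8 (*n* = 6). The PH libraries at 14 days, 537 to 588 units, lay within the range of the intact ones, 476 to 765. Differences from intact were -0.13 ± 0.14 and -0.13 ± 0.13 for the PH, and -0.03 ± 0.12 and -0.01 ± 0.12 for the POA. The PH values rested on single intact libraries, with -0.29 ± 0.14 and -0.27 ± 0.13 without library 1 (limma adjusted *P* = 0.9999 and 0.851) and -0.03 ± 0.14 and -0.03 ± 0.14 without library 2. Without the lowest POA library at 14 days, number 6 with 368 units, the 14-day POA value was 0.10 ± 0.10.

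*Oprd1*, the δ receptor for enkephalins, was the lowest signal of the set. In the PH, the 4 intact libraries had 245, 317, 320.4 and 325 units, the 14-day group ran from 247 to 373 with a median of 323, and the 4-month group from 247 to 437 with a median of 338. At 4 months 4 of 6 libraries lay above all intact ones and at 14 days 3 of 6 did. Means were 302 ± 37.7 (*n* = 4), 321 ± 46.2 (*n* = 6) and 344 ± 70.7 (*n* = 6). Differences from intact were 0.20 ± 0.12 at 14 days and 0.14 ± 0.12 at 4 months (limma adjusted *P* = 0.9999 and 0.907). Within batches 1 and 2, the 14-day difference was 0.17 and -0.002, and the 4-month difference was 0.06 and 0.28. The fitted 14-day value, adjusted for SV1, lay above both of its batch values. In the POA, means were 361 ± 53.6 (*n* = 5), 361 ± 34.2 (*n* = 6) and 320.2 ± 39.8 (*n* = 6), and the differences were 0.01 ± 0.11 and -0.17 ± 0.11 (limma adjusted *P* = 0.994 and 0.722). With SV1 and batch together as covariates, the 4-month POA value was -0.26 ± 0.09 (limma adjusted *P* = 0.226), the smallest adjusted *P* of any member under any alternative. Other settings brought it closer to 0, with -0.06 ± 0.09 when thalamic markers were the second covariate and -0.09 ± 0.11 without intact library 5.

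*Oprl1*, the nociceptin receptor, had PH means of 3447 ± 557 (*n* = 4), 3377 ± 621 (*n* = 6) and 3466 ± 660.3 (*n* = 6) and POA means of 3898 ± 576 (*n* = 5), 3646 ± 469 (*n* = 6) and 3516 ± 445 (*n* = 6). Fitted differences from intact were 0.11 ± 0.09 and -0.04 ± 0.08 for the PH, and -0.05 ± 0.08 and -0.10 ± 0.08 for the POA. The fitted 14-day value in the PH has the opposite sign from the difference of the plain means, since the fit adjusts for SV1.

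**Figure D3:**
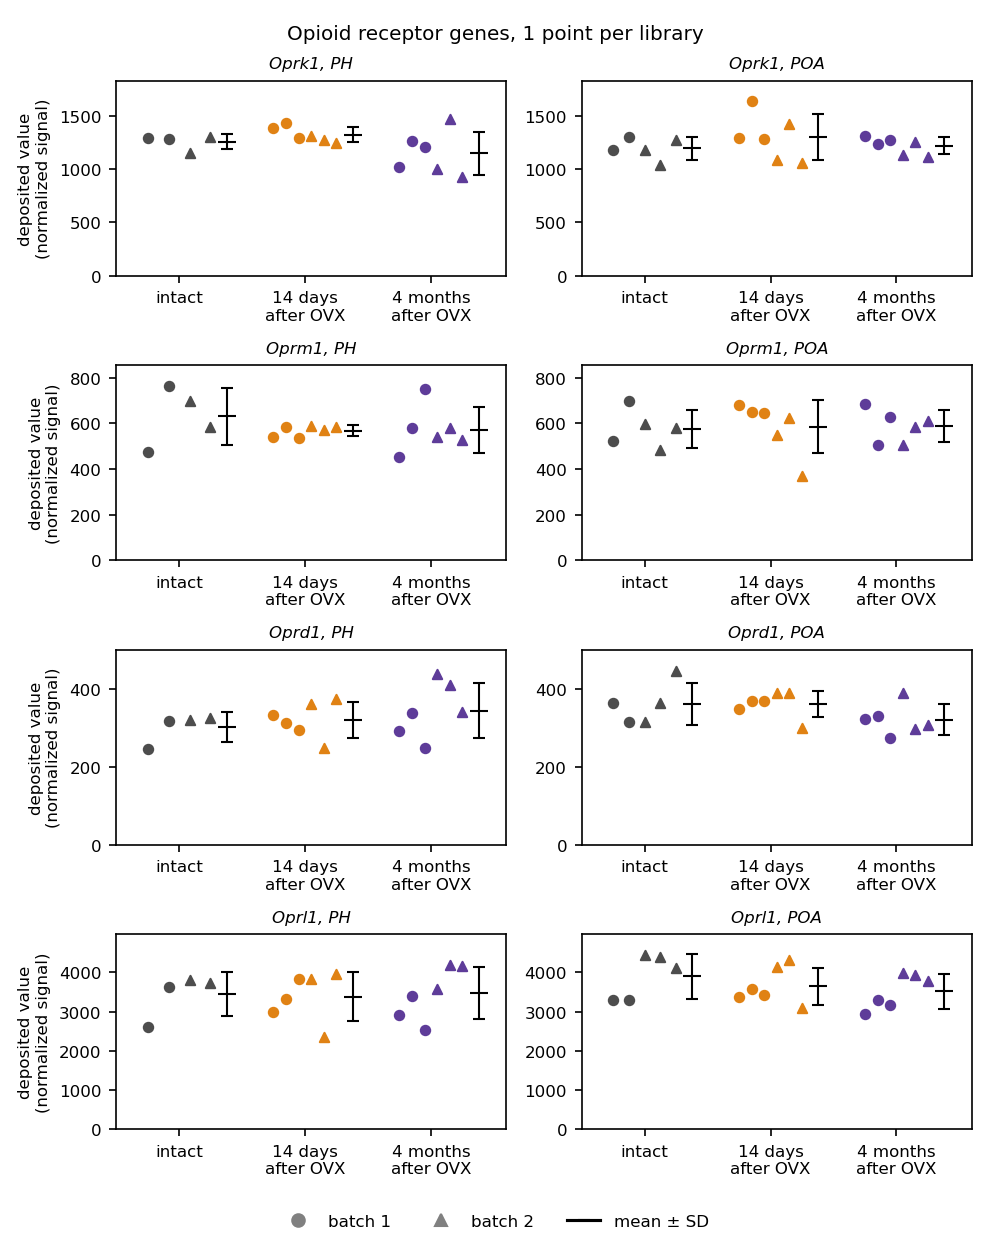
Deposited values (normalized signal, linear scale from 0) of the 4 receptor genes in the PH (left) and POA (right), with 1 point per library, circles for batch 1 and triangles for batch 2. Black bars are the mean ± SD, and the groups overlap in all 8 panels, with 1 low POA library at 14 days for *Oprm1* (368).

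Counted over the set, 0 of 7 members passed in any comparison, and few genes did at all. The share of all genes tested that passed was 0% for the PH at 14 days (smallest adjusted *P* by limma 0.287), 0.0318% for the PH at 4 months and 0.00909% for 4 months against 14 days in the PH. In the POA these shares were 0.00468%, 0.0936% and 0.0281%. At an unadjusted *P* under 0.05, members numbered 0 in all of these fits with SV1. The share of all genes below it was 3.04%, 6.07% and 4.09% for the 3 PH comparisons, and for the POA it was 6.14%, 8.5% and 5.11%. No member had groups that did not overlap, against 0.573%, 0.95% and 0.236% of all genes for the PH comparisons. For the POA this share was 0.412%, 0.665% and 0.112%. With this background, counts of the members called say little about them. The median difference of the 7 genes from intact, at 14 days and 4 months, was 0.06 and -0.06 (PH) or -0.05 and -0.10 (POA), beside medians between -0.0105 and -0.00177 for all genes. Without library 5 of the 14-day PH group, which stood apart, the 7 PH differences from intact ran from -0.13 to 0.22 at 14 days and from -0.21 to 0.23 at 4 months, and 0 of 7 passed. In the order of the group means of each gene, neighboring groups did not differ beyond their spread in either region.

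The intervals of the fit with SV1 say what sizes of change that fit leaves possible. The 95% intervals of the 24 receptor differences all lay between -0.42 and 0.45 on the log2 scale, so a change of 1.5-fold was outside every one of them. Those of the 18 precursor differences reached from -0.95 to 0.68, and 7 of the 18 included a change of 1.5-fold in 1 direction or the other. None of the 42 intervals of this fit reached a change of 2-fold. They do not cover the shifts between settings. For *Pdyn* in the POA at 4 months, the other settings ran from -0.74 (batch 1 only) to -0.17 (batch 2 only). Without library 5 of the 4-month group that difference was -0.63.

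**Figure D4:**
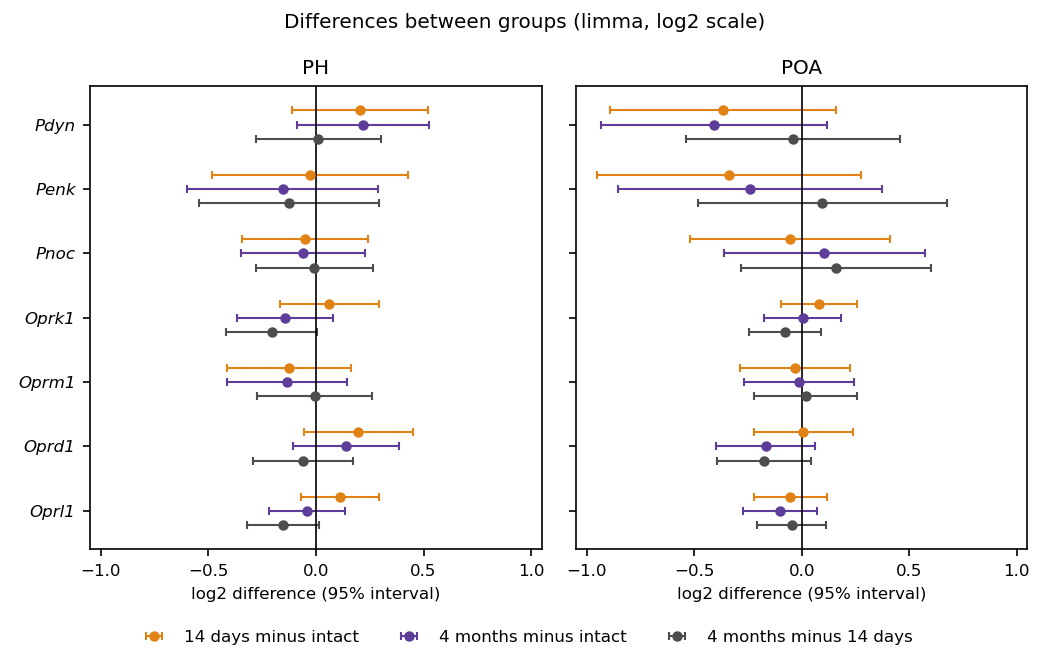
Log2 differences between groups for the 7 genes in the PH (left) and POA (right), from limma with SV1, with 95% intervals as bars. Every interval includes 0, and those of *Pdyn*, *Penk* and *Pnoc* in the POA are wider than those of the receptor genes.

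An interaction term in a single fit of all 33 libraries tested whether the response was unlike in the PH and the POA. This fit treated the 33 libraries as independent. For *Pdyn*, the difference from intact in the PH minus that in the POA was 0.50 ± 0.30 at 14 days and 0.62 ± 0.31 at 4 months (limma adjusted *P* = 0.99997 and 0.9999), the latter with a 95% interval of -0.01 to 1.242. It ranged from 0.49 to 0.80 at 4 months when single libraries were left out, the upper value without library 5 of the 4-month POA group (limma adjusted *P* = 0.999). For *Oprd1* the 4-month value was 0.28 ± 0.16 (limma adjusted *P* = 0.9999). The other 5 genes lay between -0.18 and 0.07 at 4 months. No member passed, and 0.00452% of 22141 genes did at 14 days and 0.00903% at 4 months. Members with an unadjusted *P* under 0.05 numbered 0 as well, beside 2.99% and 3.6% of all genes.

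In the POA, the precursor genes had a larger spread between libraries of the same group than the receptor genes. The residual SD after group and SV1 was 0.420 for *Pdyn*, 0.477 for *Penk* and 0.385 for *Pnoc* on the log2 scale. The median over all genes tested in the POA was 0.172, and 95.6%, 97.0% and 94.1% of genes had a smaller one. For the 4 receptor genes it was 0.145 to 0.22. In the PH, *Penk* had 0.354 (88.1% of genes smaller), *Pdyn* 0.256 (67.8%), *Pnoc* 0.228 (58.4%) and the receptors 0.128 to 0.22, beside a median of 0.206. The POA values include the lowest *Penk* library, number 6 of the 14-day group, and the highest *Pdyn* library, number 5 of the 4-month group. Without each of these, the SE of the difference given above for that gene was smaller. How far the spread rests on single libraries was not tested, and no test was made of the difference between precursor and receptor genes.

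**Figure D5:**
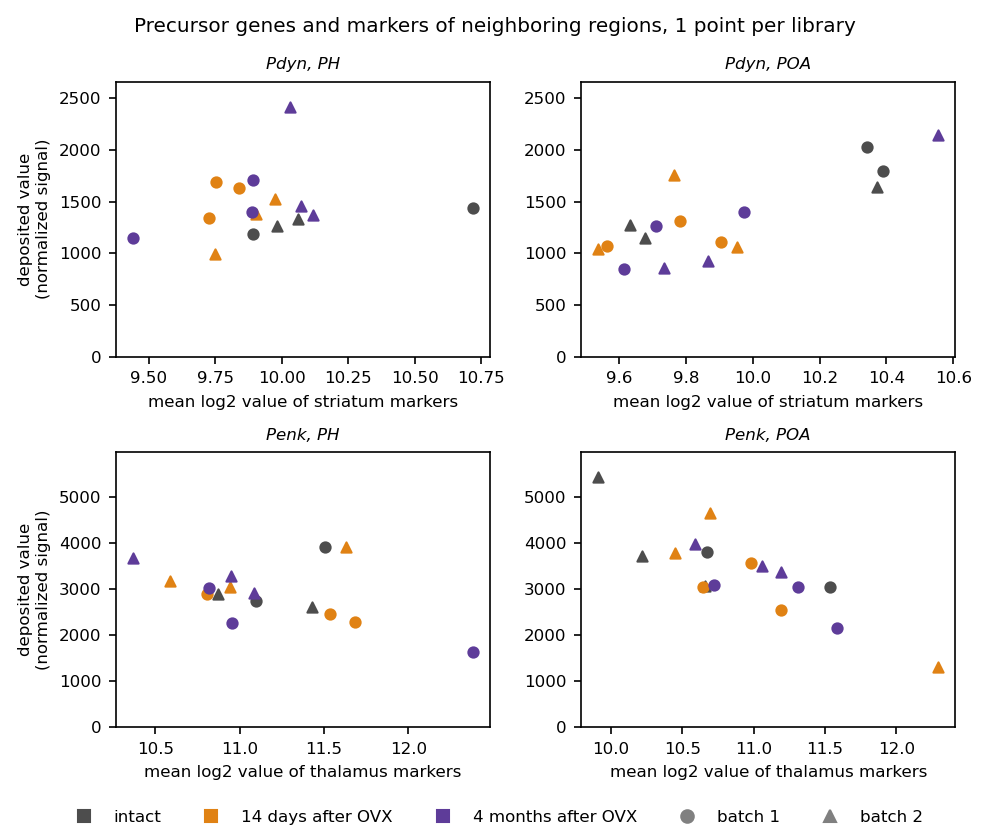
*Pdyn* against the mean log2 value of 8 striatal markers (top) and *Penk* against that of 6 thalamic markers (bottom), in the PH (left) and POA (right), with 1 point per library. In the POA the 4 libraries with the most striatal signal, 10.34 to 10.56, hold *Pdyn* values of 1645 to 2149, and the library with the most thalamic signal, 12.29, holds the lowest *Penk* value, 1311.

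For each member, the 3 genes most like it across libraries were found by Pearson correlation of log2 values, centered within region and batch, over 33 libraries and 21223 genes. These libraries share tissue blocks and dissection, so the values describe them and carry no test. *Pdyn* went most with *Tac1* (0.75), *Rgs9* (0.75) and *Syt6* (0.73), of which the first and second are on the striatal marker list. With *Syt6* the value was 0.08 in the PH and 0.94 in the POA. *Pnoc* went with *Slc32a1* (0.92), the vesicular transporter for GABA, and with *Efnb3* (0.92) and *Rhof* (0.91), at 0.91 or more in each region alone. *Penk* went with *Efnb2* (0.84), *Suclg1* (0.82) and *Shroom2* (0.82). Among the receptors, *Oprl1* had the closest partners, *Crkl* (0.91), *Hsdl1* (0.91) and *Atp6v0d1* (0.90). *Oprd1* went with *Ufd1* (0.82), *Cisd1* (0.77) and *Slc18a3* (0.76), the vesicular transporter for acetylcholine. *Oprk1* went with *Nudt10* (0.77), *Ppp1r17* (0.75) and *Stmn1* (0.75), and *Oprm1* with *Gpr52* (0.70), *Pou3f4* (0.70) and *Marf1* (0.66). Between ligand and receptor genes, the value was 0.07 for *Pdyn* with *Oprk1* (PH 0.20, POA -0.04) and 0.75 for *Pnoc* with *Oprl1* (PH 0.83, POA 0.66). *Penk* had 0.43 with *Oprd1* and 0.33 with *Oprm1*, and here the regions were apart, with 0.14 and -0.05 in the PH against 0.67 and 0.57 in the POA.

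Of 42 further genes of the opioid pathway, all tested, 0 passed in any of the 6 comparisons within a region. Their median difference from intact was between -0.03 and -0.01. Among the 7 processing genes, *Pam*, which amidates peptide ends, had differences of 0.26 ± 0.10 in the PH at 14 days and 0.20 ± 0.09 at 4 months (limma adjusted *P* = 0.9999 and 0.805). *Pcsk1*, a convertase that cuts precursors, had 0.32 ± 0.15 in the PH at 14 days. Among the 7 genes for peptide-degrading enzymes, *Ece1* had -0.18 ± 0.08 and -0.16 ± 0.08 in the POA, *Npepps* -0.09 ± 0.05 in the POA at 4 months, and *Dpp3*, which cleaves enkephalins, -0.15 ± 0.08 in the PH at 4 months. Of these 7 genes, 5 and 3 lay above 0 in the PH at 14 days and 4 months, and 3 and 2 did in the POA. Their highest values were 0.32 in the PH at 14 days and 0.37 in the POA at 4 months. Among effectors and desensitizing genes, the potassium channel gene *Kcnj5* had 0.22 ± 0.11 in the PH at 14 days, the adenylyl cyclase gene *Adcy5* -0.15 ± 0.07 in the POA at 14 days and *Rgs4*, which shortens G protein signals, -0.21 ± 0.10 in the POA at 4 months. At 14 days, 2 of the 9 effectors lay above 0 in the PH, where they ran from -0.28 to 0.22, and 5 did in the POA. *Ogfr*, the opioid growth factor receptor, which is unrelated to the classical receptors, had -0.18 ± 0.08 in the PH at 4 months.

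*Pomc*, the precursor of β-endorphin, gave the widest difference of these genes, 2.26 ± 0.74 in the POA at 14 days (limma adjusted *P* = 0.799). The 5 intact libraries ran from 124 to 349.6 units, and the 6 at 14 days from 199.8 to 6985 with a median of 1068. Pituitary markers moved in the same group. Their sum ran from 281 to 7202 in the POA at 14 days, from 204 to 1762 in intact mice and from 211 to 370.1 at 4 months, and up to 6 of the 6 were above 2 times the floor. The part of pituitary tissue in the *Pomc* values was not tested.

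*Tac2*, which encodes neurokinin B and is made with *Pdyn* in KNDy neurons, had means of 849 ± 189 (*n* = 4), 1240.0 ± 251.1 (*n* = 6) and 1159 ± 129 (*n* = 6) in the PH. Its differences from intact were 0.58 ± 0.16 at 14 days and 0.47 ± 0.15 at 4 months (limma adjusted *P* = 0.9999 and 0.617). The 14-day difference was 0.92 within batch 1 and 0.18 within batch 2, and the 4-month one 0.61 and 0.33. Those for the POA were -0.29 ± 0.14 and -0.33 ± 0.14 (limma adjusted *P* = 0.806 and 0.527), with -0.0033 and -0.12 within batch 1 and -0.53 and -0.48 within batch 2. The fitted signs in each region were those of the *Pdyn* differences, and neither gene passed. The larger POA differences were in batch 1 for *Pdyn* and in batch 2 for *Tac2*.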

How the data were processed

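The authors extracted RNA from flash-frozen tissue, made stranded poly(A) libraries, pseudoaligned 50-bp read pairs with kallisto to the mouse transcriptome (mm39) and used DESeq2 with a surrogate variable. The deposited table holds a normalized signal, not counts, and the step that gave it is not given in the sources used here.

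Log2 values were taken without a pseudocount. Of 42824 entries, 1259 without a name were left out. Genes at 2 times the floor in at least 4 PH or 5 POA libraries were tested (21998 and 21366). Each region was fitted with limma 3.58.1 (R 4.3.3; trend, robust) on its 3 groups and SV1, estimated by iteratively reweighted surrogate variable analysis in 5 rounds. *P* values were adjusted by Benjamini-Hochberg over all genes tested. The fits were also run on simulated data with independent noise per gene and a batch factor. That setting lacks the variation in tissue share seen in these libraries. The 7 members and the gene lists were chosen with earlier results of these data known, and other named genes are the 3 with the smallest *P* of the pathway list per comparison with intact mice, the 3 most alike per member, and *Kiss1* and *Tac2*. Alternatives changed the covariate, filter, log scale, libraries and batches. Figures were drawn with matplotlib 3.10.9.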

Additional observations from a re-analysis of the deposited data

Results flagged for a closer look

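In 60 groups of libraries (the 7 members with *Pomc*, *Tac2* and *Kiss1*, in 6 groups each), Dixon's ratio at the 95% level marked 5 single libraries, and chance marks about 1 in 20 groups. In the intact PH, library 1 was low for *Oprd1* (245, nearest other 317) and for *Oprl1* (2618, nearest 3637), and library 3 was low for *Oprk1* (1150.4, nearest 1276). Library 3 of the same group was marked for *Kiss1* (30.9, nearest 22.2), a value close to the floor. In the POA at 14 days, library 6, which had the most thalamic marker signal, was low for *Oprm1* (368, nearest 548).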

How the results depend on the processing

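No member passed under any alternative, over 686 fits of single differences with another setting and 1155 with a library left out, and the smallest adjusted *P* by limma was 0.226. The sign of a difference that was not called changed in 78 and 73 of these, and 24 of 56 differences never changed sign. In at least 1 alternative, 18 of the 56 had an unadjusted *P* by limma under 0.05. For *Oprk1* in the PH, 4 months against 14 days, this held in 8 of 30 fits. For the *Pdyn* difference between regions at 4 months it held in 12 of 40. The share of all genes at that threshold in the alternatives is not given here. The number of called members stayed at 0 throughout, and that of the pathway list moved once, to 1 gene (*Pcsk1n*, a convertase inhibitor, 0.28 ± 0.05) in the POA at 4 months with thalamic markers as a covariate, a setting chosen after seeing the data. With single libraries left out, 0 genes of both lists were called. With the replicate block (the replicate number of the labels as a block, with SV1), 0 members and 0 pathway genes were called within the regions, and the block across regions (correlation 0.106) gave 0 as well. Within a region, same-numbered libraries of different groups correlated at -0.18 to 0.39 in the PH and -0.31 to 0.39 in the POA. Their medians were 0.154 and 0.255, beside 0.146 and 0.275 for other pairs of the same batch. In the PH 6 of 16 libraries went best with their own number, and in the POA 5 of 17 did. These pairs lie within a region, so they cannot show whether a PH and a POA library came from the same mouse. Depth is unknown, so low signals such as *Oprd1* carry no counting interval.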
